A study of Mus musculus with 12 samples.

Results

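Cytochrome P450 family 2 is a group of membrane-bound monooxygenases encoded by genes whose mouse symbols start with Cyp2. The members were taken by symbol alone, as the protein-coding genes of the GENCODE M21 annotation named Cyp2 with a letter and a number, and pseudogenes were left out. This rule gave 48 of the 53715 genes listed in the count table. Of these 48, 36 had more than 10 counts in at least 1 of the 12 libraries and were tested among 17779 genes. A member at or near 0 in 1 group could pass that minimum only through a group where it was high, so counts over the 36 describe those genes and not the family, and the other 12 are given by their values. Family 2 enzymes carry a heme group, sit in the endoplasmic reticulum and take their electrons from cytochrome P450 oxidoreductase. In the liver they oxidize drugs, solvents, steroids, fatty acids and bile acids. Many of their genes lie in tandem clusters that expanded in rodents, and several are known for expression that depends on the zone of the lobule, on sex or on exposure to drugs.

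RNA of mouse liver cells from the strain C57BL/6JOlaHsd was sequenced as 75-base single reads of poly-A RNA, in 3 groups of 4 biological replicates. Hepatoblasts, the progenitors of hepatocytes and bile duct cells, were sorted from pooled embryonic livers at E14.5 with magnetic beads against the surface protein Dlk1, and their RNA was taken at once. The Diff. hepatocytes, also called cultured cells here, were Dlk1-sorted cells of the same kind that had been kept for 4 days on fibronectin, in medium containing Matrigel, serum, insulin, transferrin, selenium and dexamethasone. Mature hepatocytes, or adult cells, came from adult male mice aged 8 to 12 weeks by perfusion of the liver with collagenase. Hepatoblasts and Diff. hepatocytes came from the same kind of sort and differ by 4 days of culture, in which time and culture conditions cannot be told apart. Both differ from mature hepatocytes in developmental age and in the way of isolation, and Diff. hepatocytes also in culture. These differences occur together and cannot be told apart. The sex of the pooled embryos is not given in the sources used here. The comparisons ask how the cultured cells stand between the embryonic cells they came from and the adult cell type.

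The 4 hepatoblast libraries held 21523329, 25216977, 24688610 and 24472931 counts on genes. The Diff. hepatocyte libraries held 21411353, 22026087, 21974169 and 19581551 counts, and the mature hepatocyte libraries 20801286, 20043218, 22730818 and 23791477. Levels are given in CPM, which is counts brought to a common library size with TMM scaling, whose factors ran from 1.23 to 1.44 in hepatoblasts, from 1.03 to 1.08 in Diff. hepatocytes and from 0.677 to 0.778 in mature hepatocytes. A floor of 3 counts per library corresponded to between 0.0896 and 0.206 CPM. These are PCR reads without molecular identifiers, so counting intervals and floors cover counting error only. Positions of genes are given on the GRCm38 assembly. Values after ± are standard deviations over 4 libraries for levels. For log2 fold changes they are approximate standard errors, the absolute log2 fold change divided by the square root of the test's F statistic. For genes with few counts these can fall below the counting error. Adjusted p-values come from edgeR's quasi-likelihood test, adjusted by the method of Benjamini and Hochberg (BH) over all 17779 genes, and they cover the spread between the 4 replicates. Higher, lower and called mean that the log2 fold change was beyond 1 in size and the adjusted p below 0.01. Of all tested genes, 14.9% were higher and 14% lower in Diff. hepatocytes than in hepatoblasts. The shares were 20.1% and 24.7% for mature hepatocytes against hepatoblasts, and 20.2% and 15.6% for Diff. against mature hepatocytes. Counts in the short lists of partner, regulator and marker genes below stand beside these shares and were not tested against them.

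The markers of the labelled cell types were as follows. Dlk1, the surface protein used for the sort, averaged 3523 ± 759 CPM over the hepatoblast libraries, 94.2 ± 4.55 over those of Diff. hepatocytes and 4.19 ± 1.50 over those of mature hepatocytes. Afp, the fetal serum protein, measured 39337 ± 8265, 18609 ± 2091 and 42.3 ± 11.2 CPM, and Alb, the adult serum albumin, 37757 ± 8303, 40226 ± 2957 and 95187 ± 16527 CPM in the same order. Of the 3 hepatoblast markers, 2, Dlk1 and Afp, were lower in the cultured than in the embryonic cells, and in mature hepatocytes the same 2 were lower and Alb was higher, though not with library totals in place of TMM. Of the 5 hepatocyte markers Alb, Ttr, Apoa1, Cps1 and Tat, 3 were higher in Diff. hepatocytes than in hepatoblasts and 5 in mature hepatocytes, and the first count was 2 without replicate 1 of the hepatoblasts. Library totals gave 2 higher and 1 lower in Diff. hepatocytes and 3 higher in mature hepatocytes. Cps1, the entry enzyme of the urea cycle, rose from 22.0 ± 5.91 CPM in hepatoblasts to 5920.4 ± 417 in the cultured cells, beside 6066 ± 653 in the adult cells. No group lacked its own defining markers, and the Diff. hepatocytes still carried Afp at a level far above that of the adult cells.

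Some libraries stood apart before any Cyp2 gene was considered. Replicate 1 of the hepatoblasts held 2937 CPM of the 8 erythroid markers, against 595, 494 and 362 CPM in replicates 2, 3 and 4. The same library held 192 CPM of the 6 macrophage markers and 119 CPM of the 5 endothelial markers, against at most 46.3 and 52.9 CPM in the others. For the 7 members with a mean over 5 CPM in hepatoblasts, its median log2 ratio to the other 3 was -0.53, and its summed family level was the lowest of the group. Replicate 4 of the hepatoblasts lay on the other side, with a median of 0.48 over the same 7 members and the highest family sum. Among the Diff. hepatocytes, replicate 1 held 2205 CPM of the 6 mesenchymal markers and 213 CPM of the 5 bile duct markers, against at most 1398 and 93.5 CPM in the others, and its median log2 ratio was -0.39 over the 14 members with a mean over 5 CPM in that group. In each mature library some members with a mean over 5 CPM differed over 2-fold from the mean of the other 3. In replicate 4 these were Cyp2a5 and Cyp2c38, which were high, and Cyp2c40 and Cyp2c69, which were low. In replicate 3 they were Cyp2c40 and Cyp2c69, which were high, and Cyp2a5, Cyp2b10 and Cyp2c37, which were low.

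Summed over the 48 members, the family held 280.3, 336.8, 410.2 and 484.5 CPM in the 4 hepatoblast libraries and 1209, 1598, 1481 and 1443 CPM in the Diff. hepatocyte libraries. In the mature hepatocyte libraries the sum was 18423, 18534.9, 15700.0 and 23255 CPM. The 3 groups did not overlap in this sum, and the mean share of counts on genes was 0.0490% in hepatoblasts, 0.150% in the cultured cells and 1.37% in the adult cells. Without hepatoblast replicate 1, Diff. hepatocyte replicate 1 and mature replicate 4 the group means of the sum were 411 ± 73.8, 1507 ± 80.5 and 17553 ± 1605 CPM, each over 3 libraries. These are bulk libraries, in which fewer cells of a type and less RNA per cell cannot be told apart. Members above a mean of 100 CPM numbered 1 in hepatoblasts, 4 in the cultured cells and 18 in the adult cells. Per kb of exon length, the scale on which genes can be set against each other, the leading member was a different gene in each group. As a share of the family's summed group mean per kb, Cyp2c68 made up 40.0% in hepatoblasts, Cyp2d26 40.1% in Diff. hepatocytes and Cyp2e1 35.5% in mature hepatocytes.

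The make-up by subfamily differed in the same way. Its shares are means of the shares in single libraries, so that of Cyp2e1 differs a little from its share of the group mean. In hepatoblasts the Cyp2c genes held 61.8% of the family's level per kb, with libraries between 59.9% and 65.3%, and the Cyp2d genes held 34.1%. In Diff. hepatocytes the Cyp2d genes held 57.5%, the Cyp2c genes 20%, the Cyp2b genes 12.8% and the Cyp2a genes 5.51%. In mature hepatocytes Cyp2e1 held 34.9%, with libraries between 28.5% and 40.2%, followed by Cyp2d with 22.3%, Cyp2c with 21.1% and Cyp2f2 with 11.6%. The Cyp2b share, 12.8% in the cultured cells, was 0.298% in hepatoblasts and 0.0440% in mature hepatocytes. Leaving out the same 3 libraries gave 62.4% for Cyp2c in hepatoblasts, 57.7% for Cyp2d in Diff. hepatocytes and 33.1% for Cyp2e1 in mature hepatocytes.

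**Figure D1:**
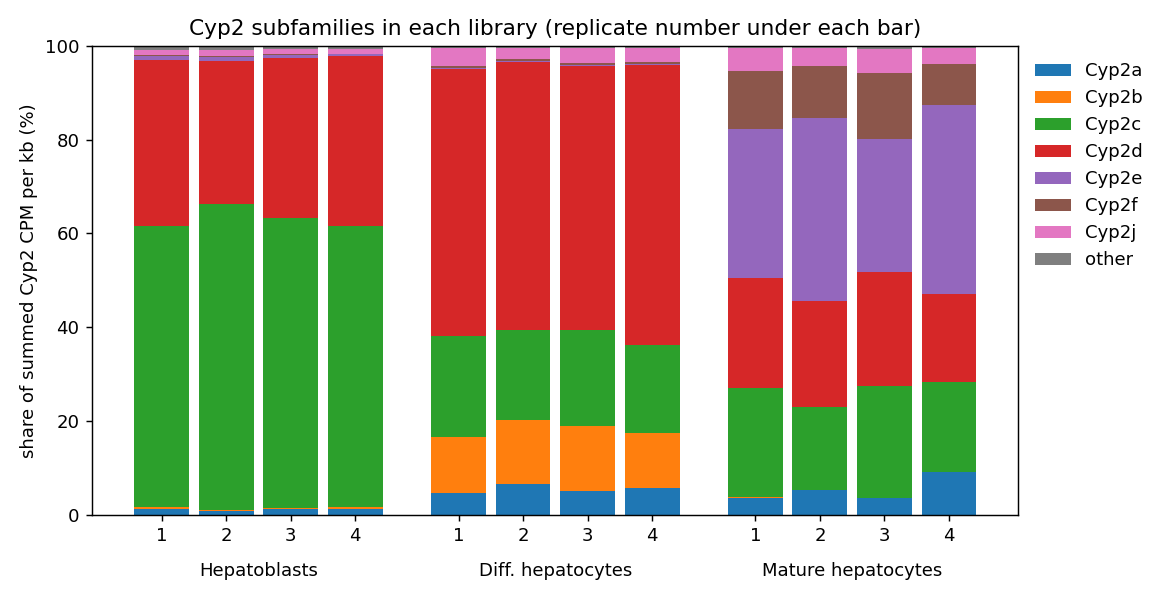
Each stacked bar is 1 of the 12 libraries and shows the percentage of the family's summed level (CPM per kb of exon length) held by each Cyp2 subfamily, with Cyp2g, r, s, t, u and w joined as other. Cyp2c leads in the 4 hepatoblast libraries with a mean of 61.8%, Cyp2d in the 4 Diff. hepatocyte libraries with 57.5%, and Cyp2e in the 4 mature hepatocyte libraries with 34.9%.

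Diff. hepatocytes had more Cyp2 RNA than hepatoblasts for part of the family. Of the 36 members tested, 19 were higher in Diff. hepatocytes (14.9% of all tested genes were) and 1, Cyp2c23, was lower (14% of all tested genes were), while 16 were not called. The largest differences above a mean of 1 CPM were those of Cyp2b10 (739-fold), Cyp2j5 (49.1-fold) and Cyp2a5 (36.6-fold). The median log2 fold change of the 36 was 1.81, or 1.63 with genes at 0 in hepatoblasts set to their lower bound, beside -0.01 for all tested genes. Without replicate 1 of the hepatoblasts, 17 members were higher and 2 lower, and without replicate 1 of the Diff. hepatocytes 19 and 1. With library totals in place of TMM the median of all tested genes moved to -0.34 in this comparison, to -1 for mature hepatocytes against hepatoblasts and to 0.62 for Diff. against mature hepatocytes. On that scale 17 members were higher in Diff. hepatocytes than in hepatoblasts and 4 lower, with Cyp2b13, Cyp2c68 and Cyp2t4 added to Cyp2c23. Under edgeR's glmTreat, where the threshold on the fold change is part of the test, 13 were higher, without Cyp2a22, Cyp2c29, Cyp2c38, Cyp2c67, Cyp2j9 and Cyp2s1, and 1 was lower.

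Mature hepatocytes had far more RNA of most tested members than hepatoblasts. Here 29 of the 36 were higher (20.1% of all tested genes were) and 1, Cyp2b13, was lower (24.7% of all tested genes were). Among the 29, Cyp2c54 was at 1 count in hepatoblasts, and Cyp2f2 (5481-fold) and Cyp2c29 (5476-fold) showed the next largest differences. The median log2 fold change was 6.54, or 5.01 with genes at 0 set to their bound, beside -0.15 for all tested genes. Cyp2a22, Cyp2a4, Cyp2b9, Cyp2c68, Cyp2s1 and Cyp2t4 were not called. Library totals gave 29 higher and 2 lower, with Cyp2t4 added, and leaving out replicate 1 of the hepatoblasts or replicate 4 of the mature hepatocytes left 29 and 1.

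Set directly against mature hepatocytes, Diff. hepatocytes were lower for 29 of the 36 members (15.6% of all tested genes were) and higher for 5 (20.2% of all tested genes were). The 5 were Cyp2a22, Cyp2a4, Cyp2b10, Cyp2b13 and Cyp2s1, and Cyp2b9 and Cyp2t4 were not called. The median log2 fold change was -4.25, also with genes at 0 set to their bound, beside 0.09 for all tested genes. Library totals gave 26 lower and 5 higher, without Cyp2c68, Cyp2d11 and Cyp2d26 among the lower, and glmTreat gave 26 lower, without the same 3, and 2 higher, Cyp2b10 and Cyp2b13. Over all tested genes library totals gave 5500 higher and 1776 lower in place of 3586 and 2776. Against hepatoblasts the same scale gave 1985 higher and 3621 lower genes in Diff. hepatocytes in place of 2648 and 2497, and 2007 and 7920 in mature hepatocytes in place of 3580 and 4391. The comparisons of Diff. and of mature hepatocytes with hepatoblasts share the hepatoblast libraries, so their calls are given side by side. By these calls 16 members were higher in both, 12 in mature hepatocytes alone and 3, Cyp2a22, Cyp2a4 and Cyp2s1, in Diff. hepatocytes alone, and Cyp2c23 moved in opposite directions. The share of all tested genes with each of these joint patterns was not counted. The joint counts therefore list members and say nothing on how the family compares with other genes.

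Cyp2e1 (ENSMUSG00000025479, chr7:140763739-140774987, + strand) oxidizes ethanol, acetaminophen and small solvents and is known from hepatocytes around the central vein. Its level was 2.68, 3.05, 3.04 and 2.52 CPM in hepatoblasts, 3.16, 3.27, 2.31 and 4.24 in Diff. hepatocytes, and 5651, 7028, 4287 and 9050.4 in mature hepatocytes. Mature libraries were far above the others in Cyp2e1, while hepatoblasts and Diff. hepatocytes overlapped. Against hepatoblasts the log2 fold change in mature hepatocytes was 11.17 ± 0.32 (2299.6-fold, edgeR adjusted p = 6.87e-12), in the same direction in 4 of 4 libraries. In Diff. hepatocytes it was 0.20 ± 0.25 (edgeR adjusted p = 0.515, not called, 3 of 4 libraries above the hepatoblast mean), and with library totals it was -0.13. The cultured cells lay 2007-fold below the adult cells, and at 3014 CPM per kb Cyp2e1 ranked 27 of 17765 genes in the latter, ahead of the other members. Replicates 2 and 4 of the mature hepatocytes were above replicates 1 and 3.

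Cyp2f2 (ENSMUSG00000052974, chr7:27119909-27133660, + strand) activates naphthalene and is known from periportal hepatocytes and the airway. It stood at 0.322, 0.418, 0.324 and 0.331 CPM in hepatoblasts, 5.88, 6.46, 6.0 and 6.51 in Diff. hepatocytes, and 2067, 1881, 1983 and 1864 in mature hepatocytes. For Cyp2f2 each group was narrow and separate from the others. Cyp2f2 rose by 4.13 ± 0.13 log2 units in Diff. hepatocytes against hepatoblasts (17.5-fold, edgeR adjusted p = 6.81e-11, 4 of 4 libraries). In mature hepatocytes Cyp2f2 rose by 12.42 ± 0.14 (edgeR adjusted p = 4.47e-15, 4 of 4 libraries), and the cultured cells lay 314-fold below the adult cells. With 962 CPM per kb it was next to Cyp2e1 in mature hepatocytes and ranked 70 of 17765. An annotated antisense gene, Gm15883, covers 13.5% of the exon length of Cyp2f2. The libraries were made with a strand-specific protocol, but the strand setting used for counting is not stated, and whether reads of the antisense gene are included was not tested.

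The Cyp2c genes form the largest subfamily, with 15 members, of which 13 were tested. In Diff. hepatocytes 5 of the 13 were higher than in hepatoblasts and 1 was lower, and in mature hepatocytes 12 were higher and 1 was not called. Cyp2c29 (ENSMUSG00000003053, chr19:39269405-39330713, + strand) is an arachidonic acid epoxygenase that phenobarbital induces in the liver. Its libraries read 0.290, 0.418, 0.194 and 0.199 CPM in hepatoblasts, 0.562, 1.03, 0.577 and 0.887 in Diff. hepatocytes, and 1580.3, 1083, 1517 and 2029 in mature hepatocytes. The mature libraries were far above the rest, and the cultured cells lay a little above hepatoblasts without overlap. The log2 fold change over hepatoblasts was 12.42 ± 0.32 in mature hepatocytes (edgeR adjusted p = 3.19e-12, 4 of 4 libraries) and 1.44 ± 0.37 in Diff. hepatocytes (edgeR adjusted p = 0.00451, 4 of 4 libraries). The small rise in culture was no longer called for Cyp2c29 with library totals (1.12), without replicate 3 or 4 of the hepatoblasts (1.30 and 1.31), or without replicate 2 or 4 of the Diff. hepatocytes (1.24 and 1.37).

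Cyp2c37, Cyp2c50 and Cyp2c54 are close relatives of Cyp2c29 that also epoxidize fatty acids. Cyp2c54 (ENSMUSG00000067225, chr19:40037940-40073827, - strand) showed 0.0322, 0, 0 and 0 CPM in hepatoblasts, 0.0432, 0, 0 and 0.0493 in Diff. hepatocytes, and 239.8, 131, 145 and 292 in mature hepatocytes. It was read in 1 hepatoblast library and 2 Diff. hepatocyte libraries, by 1 count each, and strongly in the 4 mature libraries. The single hepatoblast count came from replicate 1, without which the group is at 0. By pooled counts the ratio of mature hepatocytes to hepatoblasts was 25208 (95% counting interval 4524 to 995737) and that to Diff. hepatocytes was 8949 (2477 to 73906). Its log2 fold change between Diff. hepatocytes and hepatoblasts was not called, and both lay under the floor of 3 counts per library. Cyp2c50 averaged 0.482 ± 0.117 CPM in hepatoblasts, 0.629 ± 0.180 in the cultured cells and 620.2 ± 136 in the adult cells. For Cyp2c37 the means were 0.946 ± 0.312, 2.15 ± 1.25 and 225 ± 111 CPM in the same order. Neither Cyp2c50 nor Cyp2c37 was called between Diff. hepatocytes and hepatoblasts, where the libraries overlapped, and both were higher in mature hepatocytes.

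Cyp2c70 (ENSMUSG00000060613, chr19:40153353-40187333, - strand) makes muricholic acids, the hydrophilic bile acids of mice. Its 12 libraries were at 14.8, 20.9, 20.7 and 23.5 CPM in hepatoblasts, 179.8, 199, 192 and 167 in Diff. hepatocytes, and 569.5, 633, 655 and 325 in mature hepatocytes. They form 3 separate ranges, with the cultured cells between the embryonic and the adult ones. Cyp2c70 rose by 3.21 ± 0.21 log2 units in Diff. hepatocytes (9.24-fold, edgeR adjusted p = 4.17e-08, 4 of 4 libraries) and by 4.77 ± 0.23 in mature hepatocytes (edgeR adjusted p = 6.51e-10, 4 of 4 libraries). Diff. hepatocytes lay 2.96-fold below mature hepatocytes (log2 fold change -1.56 ± 0.20, edgeR adjusted p = 1.2e-05, lower in 4 of 4 libraries). At 93.1 CPM per kb it was next to Cyp2d26 among the members in the cultured cells.

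Cyp2c23 (ENSMUSG00000025197, chr19:44005022-44029208, - strand), also known as Cyp2c44, is an epoxygenase of arachidonic acid, and its gene lies apart from the other Cyp2c genes on chromosome 19. The libraries held 44.9, 54.6, 70.4 and 78.9 CPM in hepatoblasts, 4.28, 6.50, 6.22 and 6.61 in Diff. hepatocytes, and 538, 482, 463 and 762 in mature hepatocytes. Cultured cells were the lowest, hepatoblasts intermediate and adult cells the highest, with no overlap. Cyp2c23 fell by 3.40 log2 units in Diff. hepatocytes against hepatoblasts (10.5-fold lower, edgeR adjusted p = 4.75e-08, 4 of 4 libraries). In mature hepatocytes Cyp2c23 rose by 3.17 ± 0.22 (9.02-fold, edgeR adjusted p = 1.85e-08, 4 of 4 libraries). It was the only member called in opposite directions in these comparisons, with TMM and with library totals, and 95.1-fold separated the cultured from the adult cells.

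Cyp2c68 (ENSMUSG00000074882, chr19:39688834-39741054, - strand) was the most abundant member per kb in hepatoblasts, at 75.4 CPM per kb. Library by library it gave 93.2, 123, 140.1 and 163 CPM in hepatoblasts, 57.1, 68.6, 79.0 and 74.3 in Diff. hepatocytes, and 201, 153, 164 and 117 in mature hepatocytes. Hepatoblasts and mature hepatocytes overlapped, and the cultured cells lay below both. Against hepatoblasts the log2 fold change was -0.90 ± 0.18 in Diff. hepatocytes (edgeR adjusted p = 0.000908, lower in 4 of 4 libraries), which is under the fold threshold. It was past that threshold without replicate 1 of the hepatoblasts (-1.02) and with library totals (-1.21). In mature hepatocytes the value was 0.29 ± 0.18 (edgeR adjusted p = 0.17, not called, 3 of 4 libraries above the hepatoblast mean), and -0.54 with library totals. The difference of Diff. from mature hepatocytes in Cyp2c68 was -1.19 ± 0.19 (edgeR adjusted p = 8.13e-05, lower in 4 of 4 libraries), a call lost with library totals (-0.66). Of the 75-base windows of its transcripts, 28.5% also occur in another gene, most of them in Cyp2c40. If those windows gave no reads, its level in hepatoblasts would be 105 CPM per kb.

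The remaining Cyp2c genes were low outside mature hepatocytes. Cyp2c67 averaged 282 ± 56.6 CPM in the adult cells, 5.25 ± 2.89 in the cultured cells and 1.54 ± 0.242 in hepatoblasts, and was higher than in hepatoblasts in both other groups, in the cultured cells not with glmTreat. Cyp2c55 had 3 counts in hepatoblasts, all from replicate 3, so the pooled ratio is given: 337 in mature hepatocytes (95% counting interval 115 to 1638) and 18.3 in Diff. hepatocytes (5.82 to 92.6). Cyp2c38 and Cyp2c39 were at 0 in the 4 hepatoblast libraries, and mature hepatocytes were at least 249-fold and at least 11.3-fold higher, against 3 counts per library. The first bound was 191-fold without mature replicate 4. In Diff. hepatocytes Cyp2c38 was at least 3.16-fold higher than in hepatoblasts, a call lost when any of the 4 hepatoblast libraries or of Diff. hepatocyte replicates 2, 3 and 4 was left out. Cyp2c40 and Cyp2c69 are described with the genes known for higher expression in females. Cyp2c65 had 1 or 2 counts in 2 of the 12 libraries, and Cyp2c66 was at 0 in all 12.

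The Cyp2d genes oxidize many drugs with a basic nitrogen, and 6 of the 8 mouse members were tested. In Diff. hepatocytes 3 were higher than in hepatoblasts and in mature hepatocytes 6 were. Cyp2d26 (ENSMUSG00000022445, chr15:82790101-82794294, - strand), which led the family per kb in Diff. hepatocytes, measured 37.2, 35.8, 52.1 and 74.5 CPM in hepatoblasts, 439, 551, 522 and 531 in Diff. hepatocytes, and 1104, 1009, 819 and 1192 in mature hepatocytes. For Cyp2d26 the 3 groups did not overlap, and on the log2 scale the step from hepatoblasts to cultured cells was larger than that from cultured to adult cells. Cyp2d26 rose by 3.36 ± 0.22 log2 units in Diff. hepatocytes (10.2-fold, edgeR adjusted p = 4.83e-08, 4 of 4 libraries) and by 4.37 ± 0.24 in mature hepatocytes (20.7-fold, edgeR adjusted p = 2.05e-09, 4 of 4 libraries). Diff. hepatocytes stood -1.01 ± 0.21 from mature hepatocytes (edgeR adjusted p = 0.000744, lower in 4 of 4 libraries). The value of Cyp2d26 sits at the fold threshold, and the call was lost without replicate 1 of the hepatoblasts (-1), replicate 1 of the Diff. hepatocytes (-0.95), replicate 1 or 4 of the mature hepatocytes (-0.98 and -0.94), with the 8 libraries of the 2 groups alone (-0.99), with no filter beyond 1 count, with glmTreat, and with library totals (-0.48). In CPM per kb, Cyp2d26 stood at 27.8 in hepatoblasts, 285 in Diff. hepatocytes, where it ranked 113 of 17765 genes, and 575 in mature hepatocytes, where it ranked 111.

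Cyp2d9 (ENSMUSG00000068086, chr15:82433437-82456845, + strand) hydroxylates testosterone and is known as a male-predominant gene of the adult liver. It was found at 3.58, 2.57, 4.44 and 4.61 CPM in hepatoblasts, 43.8, 69.9, 50.5 and 53.4 in Diff. hepatocytes, and 1797, 1888, 1721 and 1763 in mature hepatocytes. Mature libraries were tight and far above the cultured cells, which in turn lay above hepatoblasts. The rise of Cyp2d9 was 8.88 ± 0.23 log2 units in mature hepatocytes (472-fold, edgeR adjusted p = 4.07e-12, 4 of 4 libraries) and 3.84 ± 0.19 in Diff. hepatocytes (14.3-fold, edgeR adjusted p = 3.99e-09, 4 of 4 libraries). The adult cells here came from males.

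Cyp2d10 (ENSMUSG00000094806, chr15:82402846-82407195, - strand) had 28.9, 30.1, 40.7 and 47.2 CPM in hepatoblasts, 113, 166, 149 and 159 in Diff. hepatocytes, and 856, 761, 757 and 859.7 in mature hepatocytes. For Cyp2d10 the groups were again in 3 separate ranges. Cyp2d10 rose in Diff. hepatocytes (log2 2.0 ± 0.17, edgeR adjusted p = 3.56e-07, 4 of 4 libraries) and 22.0-fold in mature hepatocytes (log2 4.46 ± 0.19, edgeR adjusted p = 1.95e-10, 4 of 4 libraries). It shares 22.3% of its 75-base windows with other genes, chiefly Cyp2d11. Cyp2d22 (ENSMUSG00000061740, chr15:82370527-82380260, - strand), the member often set beside human CYP2D6, gave 36.9, 45.2, 54.7 and 61.5 CPM in hepatoblasts, 45.4, 64.4, 55.1 and 60.0 in Diff. hepatocytes, and 324, 315, 276 and 339.8 in mature hepatocytes. Hepatoblasts and cultured cells overlapped and the adult cells were higher. The log2 fold change of Cyp2d22 in Diff. hepatocytes was 0.18 ± 0.15 (edgeR adjusted p = 0.317, not called, 3 of 4 libraries above the hepatoblast mean), and -0.13 with library totals. In mature hepatocytes Cyp2d22 rose by 2.66 ± 0.16 (6.33-fold, edgeR adjusted p = 5.46e-09, 4 of 4 libraries).

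Cyp2d40 and Cyp2d11 were low in hepatoblasts and in Diff. hepatocytes. Cyp2d40 had means of 0.242 ± 0.101, 0.0672 ± 0.0441 and 83.3 ± 29.0 CPM in hepatoblasts, Diff. and mature hepatocytes, and the pooled ratio of mature to Diff. hepatocytes was 1237 (95% counting interval 568 to 3372). Cyp2d11 reached 1.36 ± 0.176 CPM in mature hepatocytes. Cyp2d12 and Cyp2d34 stayed under the count minimum, with means of 0.343 and 0.341 CPM in mature hepatocytes and at most 0.0370 CPM elsewhere.

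The 4 Cyp2a genes were all higher in the cultured cells than in hepatoblasts, and 2 of the 4, Cyp2a12 and Cyp2a5, were higher in mature hepatocytes. Cyp2a5 (ENSMUSG00000005547, chr7:26835305-26843548, + strand) is the coumarin hydroxylase of mouse liver, which many drugs and toxicants induce. Its level was uneven among replicates: 0.580, 0.418, 0.486 and 0.862 CPM in hepatoblasts, 12.3, 31.1, 17.7 and 25.1 in Diff. hepatocytes, and 214, 572, 176 and 1608 in mature hepatocytes. Replicate 4 of the mature hepatocytes was far above the other 3, yet the lowest mature library was above the highest cultured one. Cyp2a5 rose by 5.20 ± 0.77 log2 units in Diff. hepatocytes (edgeR adjusted p = 6.49e-05, 4 of 4 libraries) and by 10.09 ± 0.86 in mature hepatocytes (edgeR adjusted p = 1.85e-07, 4 of 4 libraries). The value in mature hepatocytes was 9.08 without replicate 4, and the difference of Diff. from mature hepatocytes moved from -4.90 to -3.90.

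Cyp2a12 averaged 4.54 ± 1.12 CPM in hepatoblasts, 91.8 ± 18.9 in the cultured cells and 590.1 ± 55.8 in the adult cells, with no overlap. Its neighbour Cyp2a22 (ENSMUSG00000091867, chr7:26931631-26939384, - strand) differed: 0.838, 0.508, 1.10 and 2.45 CPM in hepatoblasts, 3.50, 4.09, 4.75 and 5.47 in Diff. hepatocytes, and 1.30, 1.35, 0.117 and 0.807 in mature hepatocytes. The cultured cells were the highest group, and hepatoblasts and adult cells overlapped. Cyp2a22 was higher in Diff. hepatocytes by 1.86 ± 0.51 against hepatoblasts (edgeR adjusted p = 0.00631, 4 of 4 libraries) and by 2.33 ± 0.55 against mature hepatocytes (edgeR adjusted p = 0.00206, 4 of 4 libraries). The first call was lost for Cyp2a22 without replicate 1, 2 or 3 of the hepatoblasts (1.73, 1.60 and 1.81), without replicate 2, 3 or 4 of the Diff. hepatocytes (1.89, 1.83 and 1.75), and with library totals (1.56). In mature hepatocytes against hepatoblasts it was -0.46 and not called, and 0.11 without replicate 4 of the hepatoblasts.

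The Cyp2b subfamily includes Cyp2b10, a classical target of phenobarbital and of the receptor CAR. Of 5 members 3 were tested, and 1, Cyp2b10, was higher than in hepatoblasts in both other groups. Cyp2b10 (ENSMUSG00000030483, chr7:25897620-25926624, + strand) gave 0.355, 0.209, 0.227 and 0.232 CPM in hepatoblasts, 150.1, 226, 216 and 177 in Diff. hepatocytes, and 14.9, 3.66, 2.92 and 10.2 in mature hepatocytes. Cultured cells were above every adult library, and adult libraries above every hepatoblast library. The rise of Cyp2b10 in Diff. hepatocytes was 9.53 ± 0.55 log2 units (739-fold, edgeR adjusted p = 1.42e-08, 4 of 4 libraries). In mature hepatocytes it was 4.92 ± 0.56 (30.2-fold, edgeR adjusted p = 3.02e-06, 4 of 4 libraries). Set against mature hepatocytes, Diff. hepatocytes were higher by 4.61 ± 0.41 (24.5-fold, edgeR adjusted p = 4.13e-07, 4 of 4 libraries). The sign of these 3 differences was the same with library totals. Cyp2b10 stood at 91.1 CPM per kb in the cultured cells, close to Cyp2c70 and Cyp2d10. Cyp2b13 averaged 0.578 ± 0.169 CPM in hepatoblasts and 0.303 ± 0.0752 in the cultured cells and was at 0 in the 4 mature libraries, so hepatoblasts were at least 3.04-fold and Diff. hepatocytes at least 1.60-fold higher. In the fit of the 8 Diff. and mature hepatocyte libraries alone Cyp2b13, with at most 9 counts in any of them, was under the count minimum and its call was lost. Cyp2b9 stayed near the floor in each group. Cyp2b19 and Cyp2b23 had at most 2 counts in any library, in Diff. hepatocytes, and were at 0 in the other groups.

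Cyp2j5 and Cyp2j6 oxidize arachidonic acid and other fatty acids, Cyp2j5 mainly in liver and kidney. The values of Cyp2j5 (ENSMUSG00000052520, chr4:96628773-96664154, - strand) were 0.548, 0.806, 0.810 and 0.729 CPM in hepatoblasts, 40.0, 29.4, 39.9 and 33.9 in Diff. hepatocytes, and 871, 696, 797 and 767 in mature hepatocytes. Libraries within a group were close, and the groups were far apart. The rise of Cyp2j5 was 5.62 ± 0.16 log2 units in Diff. hepatocytes (49.1-fold, edgeR adjusted p = 3.38e-11, 4 of 4 libraries) and 10.07 ± 0.18 in mature hepatocytes (1073-fold, edgeR adjusted p = 2.52e-13, 4 of 4 libraries). Cyp2j6 (ENSMUSG00000052914, chr4:96516138-96553661, - strand) showed 5.0, 6.27, 6.35 and 6.93 CPM in hepatoblasts, 18.8, 24.8, 25.4 and 23.5 in Diff. hepatocytes, and 102, 95.8, 87.8 and 68.9 in mature hepatocytes. These too were 3 separate ranges in the same order. Cyp2j6 rose 3.77-fold in Diff. hepatocytes (log2 1.91 ± 0.15, edgeR adjusted p = 1.46e-07, 4 of 4 libraries) and 14.4-fold in mature hepatocytes (log2 3.85 ± 0.15, edgeR adjusted p = 1.31e-10, 4 of 4 libraries). Cyp2j9 was lower throughout, with means of 0.175 ± 0.0559, 0.602 ± 0.266 and 12.3 ± 1.69 CPM in hepatoblasts, Diff. and mature hepatocytes, and higher than in hepatoblasts in both other groups, in the cultured cells not with glmTreat. The other 5 Cyp2j genes were under the count minimum. Cyp2j11 and Cyp2j12 were at 0 in all 12 libraries, Cyp2j7 had 1 count, and Cyp2j13 had 1 count in each of 2 libraries. Cyp2j8 reached a mean of 0.130 CPM in mature hepatocytes.

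Cyp2r1, Cyp2u1, Cyp2s1 and Cyp2w1 are single-copy members that are conserved between mammals. Cyp2r1 (ENSMUSG00000030670, chr7:114549682-114562972, - strand) hydroxylates vitamin D at carbon 25 in the liver, and its libraries were at 0.935, 1.70, 1.36 and 1.96 CPM in hepatoblasts, 1.95, 2.67, 2.44 and 3.80 in Diff. hepatocytes, and 23.0, 17.8, 21.4 and 21.2 in mature hepatocytes. Adult cells were clearly above the others, while a hepatoblast library and a cultured one were level. In mature hepatocytes Cyp2r1 rose by 3.80 ± 0.24 log2 units (edgeR adjusted p = 9.77e-09, 4 of 4 libraries). In Diff. hepatocytes the log2 fold change was 0.86 ± 0.24 (edgeR adjusted p = 0.00701, 4 of 4 libraries above the hepatoblast mean), under the fold threshold, and 1.01 and called without replicate 4 of the hepatoblasts. Cyp2u1 (ENSMUSG00000027983, chr3:131288441-131303227, - strand) hydroxylates long-chain fatty acids, and it measured 0.355, 0.687, 0.810 and 1.29 CPM in hepatoblasts, 3.59, 3.92, 5.77 and 5.32 in Diff. hepatocytes, and 126, 138, 146 and 165 in mature hepatocytes. For Cyp2u1 the groups were separate. Cyp2u1 rose by 2.56 ± 0.27 in Diff. hepatocytes (5.90-fold, edgeR adjusted p = 2.97e-06, 4 of 4 libraries) and by 7.51 ± 0.28 in mature hepatocytes (182-fold, edgeR adjusted p = 5.8e-11, 4 of 4 libraries). The antisense gene 4930534D22Rik covers 10.5% of its exon length, with the same limit as for Cyp2f2.

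Cyp2s1 (ENSMUSG00000040703, chr7:25802475-25816913, - strand) is known from epithelia outside the liver. It was read at 0.516, 0.418, 0.583 and 0.530 CPM in hepatoblasts, 6.14, 1.59, 2.31 and 2.51 in Diff. hepatocytes, and 2.06, 0.193, 0.350 and 0.310 in mature hepatocytes. Replicate 1 was the highest library in both the cultured and the adult group, and the adult group overlapped with each of the others. Cyp2s1 rose by 2.61 ± 0.60 log2 units in Diff. hepatocytes (6.09-fold, edgeR adjusted p = 0.00222, 4 of 4 libraries). Against mature hepatocytes the difference was 2.13 ± 0.62 (edgeR adjusted p = 0.0083, 4 of 4 libraries above the adult mean). That call was lost without Diff. hepatocyte replicate 1 (1.58), 3 (2.25) or 4 (2.22), without mature replicate 2 (1.81), 3 (1.89) or 4 (1.88), without hepatoblast replicate 2, 3 or 4 (2.14 each), with the 8 libraries of the 2 groups alone (2.15) and with glmTreat, and without mature replicate 1 the value was 3.43. In mature hepatocytes against hepatoblasts Cyp2s1 was 0.48 ± 0.66 and not called, and it turned to -0.84 without mature replicate 1 and to -0.39 with library totals. Replicate 1 of the Diff. hepatocytes also held the most bile duct marker RNA (213 CPM) and mesenchymal marker RNA (2205 CPM) of its group, and replicate 1 of the mature hepatocytes the most bile duct marker RNA (40.7 CPM). Their part in the level of Cyp2s1 was not tested.

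Cyp2g1, an enzyme of the olfactory mucosa, was at 0 in hepatoblasts, had 3 counts in Diff. hepatocytes and a mean of 1.19 ± 0.824 CPM in mature hepatocytes. Adult cells were at least 12.4-fold above hepatoblasts, and the pooled ratio to Diff. hepatocytes was 35.6 (95% counting interval 11.7 to 177). Both calls of Cyp2g1 were lost with filterByExpr, which left 28 members in place of 29 in each of these counts. Without Diff. hepatocyte replicate 2, which held 2 of the 3 counts, the log2 difference of Diff. from mature hepatocytes in Cyp2g1 went from -4.94 to -5.87. Cyp2t4 was low and not called in any comparison, with means of 0.842 ± 0.0859, 0.442 ± 0.148 and 0.590 ± 0.257 CPM in hepatoblasts, Diff. and mature hepatocytes. Cyp2w1, known from fetal gut and colon tumours, had 1 count in each of 4 libraries and stayed under the minimum.

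**Figure D2:**
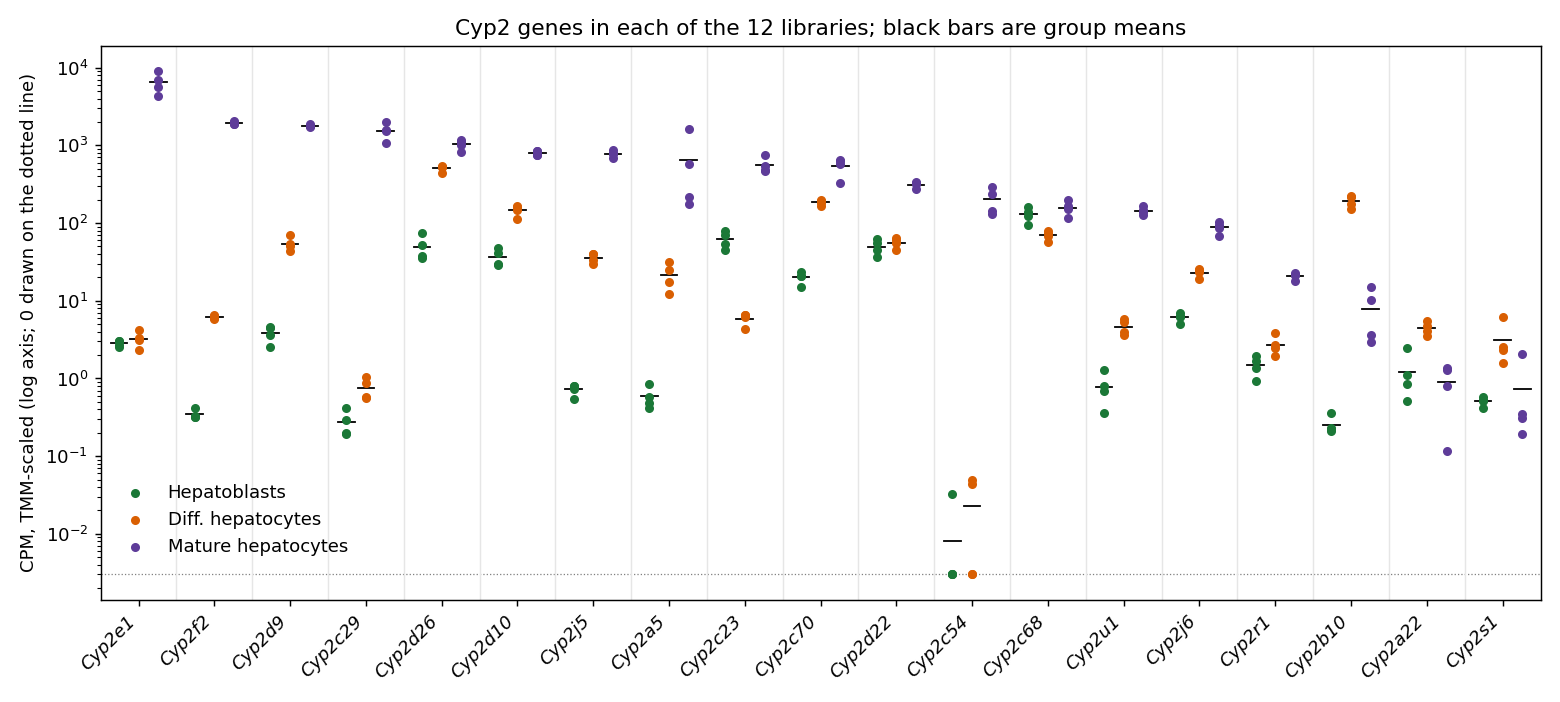
Each dot is the level of a gene in 1 library (CPM, log axis, 4 dots per group), black bars are group means, values of 0 lie on the dotted line, and 19 members are ordered by their mean in mature hepatocytes. Compared across the groups, Cyp2b10 has its own highest mean in Diff. hepatocytes, at 192 CPM, and Cyp2c23 has its own lowest mean there, at 5.90 CPM.

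By position, the 48 members lie in 4 clusters and 5 single loci of the GRCm38 assembly. The Cyp2c cluster at chr19:39007019-40187333 holds 14 members, of which 12 were tested: 5 were higher in Diff. hepatocytes than in hepatoblasts, 11 in mature hepatocytes, and 12 (11 with library totals) were lower in Diff. than in mature hepatocytes. The Cyp2d cluster at chr15:82370527-82794294 holds 8 members and the Cyp2j cluster at chr4:96027534-96664154 also 8, and 6 of 6 and 3 of 3 of their tested members were lower in Diff. than in mature hepatocytes, or 4 of 6 and 3 of 3 with library totals. The cluster at chr7:25802475-27158668 holds 13 members of the subfamilies Cyp2a, b, f, g, s and t, and 11 of them were tested. The 5 members that were higher in Diff. than in mature hepatocytes all lie in this cluster, while 4 of its members, Cyp2a12, Cyp2a5, Cyp2f2 and Cyp2g1, were lower. Cyp2c23, Cyp2e1, Cyp2r1, Cyp2u1 and Cyp2w1 stand alone.

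**Figure D3:**
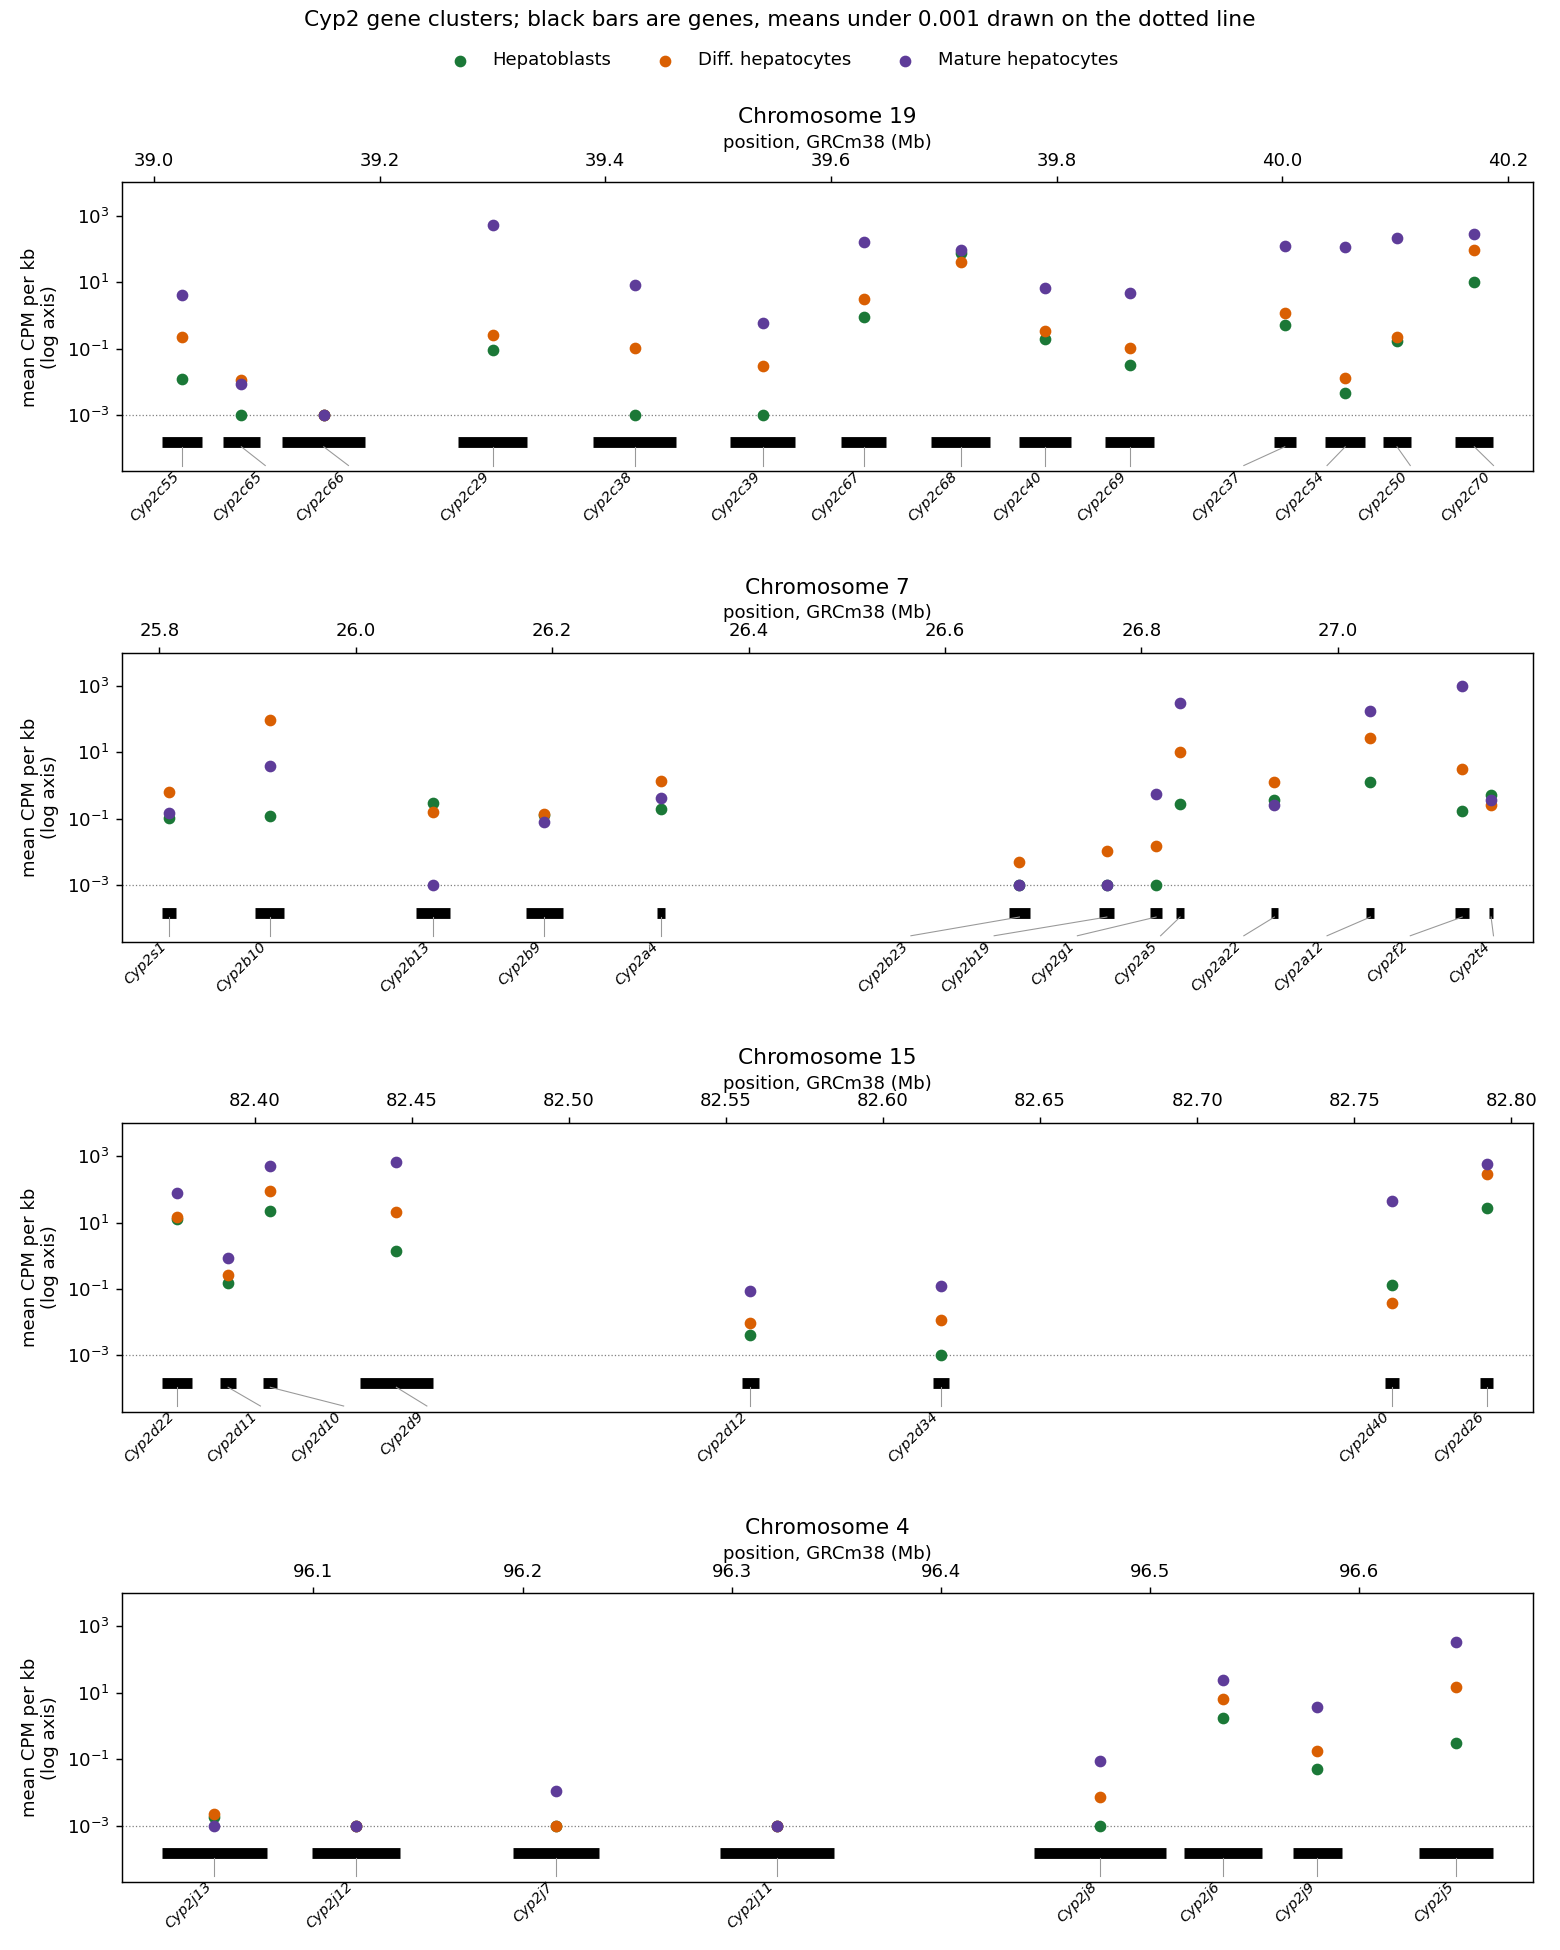
The 4 panels are the gene clusters on chromosomes 19, 7, 15 and 4, with position in Mb (GRCm38) on the x axis and the mean level of each gene in each group on the y axis (CPM per kb of exon length, log scale); black bars mark the genes and means under 0.001 lie on the dotted line. In the chromosome 7 panel Cyp2b10 reaches 91.1 CPM per kb in Diff. hepatocytes against 3.75 in mature hepatocytes, while Cyp2f2 reaches 3.07 against 962.

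Near-identical copies limit some of these values. The share of 75-base windows that also occur in transcripts of other genes was 45.9% for Cyp2c40, 42.6% for Cyp2c69, 36.0% for Cyp2c67 and 28.5% for Cyp2c68. It was 22.3% for Cyp2a5 and 22.1% for Cyp2a4, and 0 for Cyp2c23, Cyp2c70, Cyp2f2, Cyp2r1, Cyp2s1 and the tested Cyp2j genes. Reads from shared windows could be lost or assigned to the other copy, so levels of the first group are uncertain. Exons of another annotated gene overlap 11 members, and for 6 of these the other gene is on the opposite strand. Apart from Cyp2f2 and Cyp2u1, the overlap with the opposite strand was at most 5.27% of the exon length, in Cyp2s1.

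A table of RefSeq promoter windows, 250 bases before to 50 bases after the gene start on GRCm38.p6, held 40 of the 48 members. Cyp2c54, Cyp2c23, Cyp2d22, Cyp2d12, Cyp2d34, Cyp2g1, Cyp2j7 and Cyp2u1 had no entry. Among 780 pairs of member windows, the closest were Cyp2b9 and Cyp2b13 with 298 of 300 bases identical, Cyp2a4 and Cyp2a5 with 294, and Cyp2c68 and Cyp2c69 with 277. The last 2 pairs are shown because copies with nearly the same window had very different levels. Cyp2a5 reached 310.0 CPM per kb in mature hepatocytes and Cyp2a4 0.436, and in hepatoblasts Cyp2c68 stood at 75.4 CPM per kb and Cyp2c69 at 0.0329. Capitals mark bases that differ from the other copy or have no partner in it, and each window runs 5′ to 3′ on the strand of its gene. The Cyp2a4 window is chr7:26306942-26307241 on the + strand, that of Cyp2a5 chr7:26835089-26835388 on the + strand, that of Cyp2c68 chr19:39741052-39741351 on the - strand and that of Cyp2c69 chr19:39886720-39887019 on the - strand.
Cyp2a4: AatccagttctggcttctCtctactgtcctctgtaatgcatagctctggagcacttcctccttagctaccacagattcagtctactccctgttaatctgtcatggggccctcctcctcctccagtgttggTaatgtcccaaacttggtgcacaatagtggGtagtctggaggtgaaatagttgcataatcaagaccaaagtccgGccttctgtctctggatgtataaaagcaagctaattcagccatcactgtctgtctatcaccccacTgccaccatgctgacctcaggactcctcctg
Cyp2a5: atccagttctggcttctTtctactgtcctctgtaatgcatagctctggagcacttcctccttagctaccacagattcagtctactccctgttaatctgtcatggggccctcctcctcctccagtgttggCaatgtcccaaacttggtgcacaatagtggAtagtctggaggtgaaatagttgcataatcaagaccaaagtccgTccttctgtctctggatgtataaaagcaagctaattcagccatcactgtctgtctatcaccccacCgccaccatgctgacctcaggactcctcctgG
Cyp2c68: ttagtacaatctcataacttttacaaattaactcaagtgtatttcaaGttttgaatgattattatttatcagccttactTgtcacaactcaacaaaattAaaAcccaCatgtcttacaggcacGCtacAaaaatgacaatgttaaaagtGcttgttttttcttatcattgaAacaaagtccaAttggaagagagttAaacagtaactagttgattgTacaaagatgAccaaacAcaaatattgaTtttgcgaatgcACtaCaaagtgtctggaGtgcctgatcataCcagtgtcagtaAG
Cyp2c69: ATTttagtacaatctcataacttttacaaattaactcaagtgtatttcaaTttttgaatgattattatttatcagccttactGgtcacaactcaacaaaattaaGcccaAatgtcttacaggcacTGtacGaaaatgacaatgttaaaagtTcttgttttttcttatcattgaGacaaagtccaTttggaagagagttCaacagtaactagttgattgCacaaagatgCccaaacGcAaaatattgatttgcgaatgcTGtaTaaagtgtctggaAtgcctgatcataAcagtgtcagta

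Short motifs were looked for in the 40 member windows on both strands. TATAAA, the letters of a TATA box, occurred in 20 of 40 (50%) and in 13.6% of the 32851 windows of the table. The Cyp2c69 window holds these letters and that of Cyp2c68 does not. CAAAGTCCA, a form of the sequence known to bind HNF4, was in 6 of 40 (15%), those of Cyp2c40, Cyp2c65, Cyp2c67, Cyp2c68, Cyp2c69 and Cyp2c70, and in 0.475% of the table. CCAAT was in 19 of 40 (47.5%) and in 37.4% of the table. TTATGTAA, a site type of the PAR bZIP factors, and a palindromic site type of HNF1 were in 0 of 40 and in 0.938% and 0.00913% of the table. A match describes the letters of the window and not a bound site, and the 40 windows include near copies of each other.

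Cyp2 genes known from hepatocytes near the central vein were higher mainly in the adult cells. Of the 6 genes Cyp2e1, Cyp2c29, Cyp2c37, Cyp2c50, Cyp2c54 and Cyp2a5, 6 were higher in mature hepatocytes than in hepatoblasts, with a median log2 fold change of 10.74 beside -0.15 for all tested genes. In Diff. hepatocytes 2 of the 6, Cyp2a5 and Cyp2c29, were higher, with a median of 1.12 beside -0.01, and with library totals 1 of the 6 was. Their summed level was 17.6, 39.9, 23.7 and 32.2 CPM in the 4 Diff. hepatocyte libraries and 8665, 9433, 6793 and 14094 CPM in the mature ones, and 6 of 6 were lower in the cultured cells. Beside them, 7 other genes known to follow beta-catenin around the central vein were measured. In Diff. hepatocytes 4 of the 7, Axin2, Lgr5, Tbx3 and Rnf43, were lower than in hepatoblasts, with a median of -2.76, and with library totals Glul as well. Lgr5, a receptor and target of Wnt signalling, averaged 17.5 ± 5.31 CPM in hepatoblasts, 0.132 ± 0.0759 in the cultured cells and 9.25 ± 3.56 in the adult cells. Oat, an ornithine enzyme of pericentral cells, showed the smallest difference in Diff. hepatocytes, with 46.5 ± 13.2 and 48.6 ± 6.86 CPM, and reached 914 ± 354 CPM in mature hepatocytes. In mature hepatocytes 2 of the 7, Slc1a2 and Oat, were higher than in hepatoblasts, with a median of 0.54 that turned to -0.30 with library totals, where Lgr5 was lower, as it was without replicate 1 of the hepatoblasts. The glutamate transporter Slc1a2 changed most, from 0.691 ± 0.0937 to 168 ± 64.0 CPM, and Rnf43 least, with 52.1 ± 12.5 and 50.3 ± 21.1 CPM. All 7 were lower in Diff. than in mature hepatocytes (median -4.23), Slc1a2 by the most and Glul, glutamine synthetase, by the least at -1.73 ± 0.19 (edgeR adjusted p = 2.9e-06, 4 of 4 libraries).

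Genes known for higher expression in female liver behaved unevenly. Of Cyp2a4, Cyp2b9, Cyp2b13, Cyp2c40 and Cyp2c69, 1 was higher in Diff. hepatocytes than in hepatoblasts (median 0.80 beside -0.01), and 2 were higher and 1 lower in mature hepatocytes (median 1.19 beside -0.15). With library totals 1, Cyp2b13, was also lower in Diff. hepatocytes. Cyp2a4, a steroid hydroxylase, was at 0.226, 0.179, 0.421 and 0.497 CPM in hepatoblasts, 1.73, 2.20, 2.0 and 3.40 in Diff. hepatocytes, and 0.617, 0.770, 0.525 and 1.12 in mature hepatocytes. The cultured cells were highest, without overlap. It was higher in Diff. hepatocytes by 2.80 ± 0.36 against hepatoblasts (edgeR adjusted p = 2.12e-05, 4 of 4 libraries) and by 1.61 ± 0.36 against mature hepatocytes (edgeR adjusted p = 0.00134, 4 of 4 libraries). In mature hepatocytes it was 1.19 ± 0.39 against hepatoblasts (edgeR adjusted p = 0.0147, 4 of 4 libraries), which was not called, and called without replicate 4 of the hepatoblasts (1.44). Cyp2c40 measured 12.6, 17.7, 24.3 and 1.06 CPM in the mature libraries, and Cyp2c69 8.98, 7.77, 13.5 and 0.807 CPM. Replicate 4 was far below the other 3 libraries for both genes, and without it their log2 fold changes over hepatoblasts went from 5.11 to 5.49 and from 6.99 to 7.36. Cyp2c40 and Cyp2c69 share 45.9% and 42.6% of their windows with other genes, mostly with each other, so they are not separate observations.

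The partners of the family followed it in part. Of the 5 electron carriers and interactors Por, Cyb5a, Cyb5b, Cyb5r3 and Pgrmc1, 1 was higher in Diff. hepatocytes than in hepatoblasts (median log2 fold change 0.70) and 5 in mature hepatocytes (median 2.20). Por, the oxidoreductase that reduces the Cyp2 enzymes, held 91.97, 106, 119 and 124 CPM in hepatoblasts, 764, 881, 849.8 and 786 in Diff. hepatocytes, and 337, 728, 295 and 661 in mature hepatocytes. Hepatoblasts were the lowest, and the cultured and adult libraries came close. Por rose by 2.89 ± 0.26 log2 units in Diff. hepatocytes (edgeR adjusted p = 7.38e-07, 4 of 4 libraries) and by 2.20 ± 0.25 in mature hepatocytes (edgeR adjusted p = 3.84e-06, 4 of 4 libraries). Por was 0.70 ± 0.24 higher in Diff. than in mature hepatocytes, which was not called, while the other 4 partners were lower (median of the 5 -1.86), and with library totals the value of Por was called too. Pgrmc1 changed most at 2.96 ± 0.13 in mature hepatocytes and -2.26 ± 0.13 between Diff. and mature hepatocytes, and Cyb5r3 least against hepatoblasts, at -0.12 ± 0.09 and 1.74 ± 0.09, the latter not called with library totals.

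Heme is the cofactor of the Cyp2 enzymes. Of the 8 genes of heme synthesis, 1 was higher and 4 were lower in Diff. hepatocytes than in hepatoblasts (median -1.12), 3 were higher and 1 lower in mature hepatocytes (median 0.58), and 8 were lower in Diff. than in mature hepatocytes (median -1.51, and 7 lower without mature replicate 4). Library totals gave 1 higher and 6 lower, 1 higher and 2 lower (median -0.31), and 3 lower. Alas1, the rate-limiting enzyme in liver, held 28.3, 28.0, 28.9 and 35.3 CPM in hepatoblasts, 214, 239, 227 and 181 in Diff. hepatocytes, and 262, 1785, 846 and 1079.7 in mature hepatocytes. Alas1 rose by 2.84 ± 0.41 log2 units in Diff. hepatocytes (edgeR adjusted p = 4.99e-05, 4 of 4 libraries) and by 5.04 ± 0.45 in mature hepatocytes (edgeR adjusted p = 2.79e-07, 4 of 4 libraries), and replicate 1 of the adult cells was close to the cultured ones. Fech changed least in Diff. hepatocytes (-0.34 ± 0.26) and Cpox in mature hepatocytes (0.11 ± 0.30), and between Diff. and mature hepatocytes Alad differed most (-3.45 ± 0.30). In hepatoblasts the 8 genes summed to 1146, 479, 459 and 433 CPM, highest in replicate 1, which also held the most erythroid marker RNA, and the part of erythroid cells was not tested. Without that library 1 gene was higher and 3 were lower in Diff. hepatocytes, without Cpox, and 4 were higher in mature hepatocytes, with Urod added.

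Of the 4 genes of heme breakdown, 1 was higher and 2 lower in Diff. hepatocytes (median -1.38), 1 higher and 1 lower in mature hepatocytes (median 0.32, and -0.54 with library totals), and 1 higher and 1 lower in Diff. than in mature hepatocytes (median -0.17, and 0.35 with library totals). Hmox1, the inducible heme oxygenase, averaged 121 ± 22.7, 32.7 ± 9.89 and 13.9 ± 3.94 CPM in hepatoblasts, Diff. and mature hepatocytes, Blvrb 61.0 ± 44.1, 14.6 ± 0.837 and 137 ± 35.2 CPM, and Blvra changed least against hepatoblasts. The higher calls of Hmox2 in Diff. and of Blvrb in mature hepatocytes were lost with library totals, where 3 genes and 1 gene were lower. Hmox1 was not called between Diff. and mature hepatocytes without replicate 1 of the Diff. hepatocytes, and Blvrb in mature hepatocytes against hepatoblasts was lost when any library but replicate 1 of the hepatoblasts was left out.

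The receptors that sense drugs and steroids and act on Cyp2 genes were mostly higher in both hepatocyte groups. Of 8 sensors 5 were higher in Diff. hepatocytes than in hepatoblasts (median 1.85) and 7 in mature hepatocytes (median 2.20, with 4 of 8 called under library totals). Nr1i3, the receptor CAR, through which phenobarbital acts on Cyp2b10, was at 0.774, 0.717, 0.712 and 1.09 CPM in hepatoblasts, 3.63, 6.20, 5.51 and 5.37 in Diff. hepatocytes, and 40.2, 63.9, 36.5 and 60.5 in mature hepatocytes. The groups were in 3 separate ranges with adult cells the highest, whereas Cyp2b10 itself was highest in the cultured cells. Nr1i3 rose by 2.65 ± 0.25 in Diff. hepatocytes (edgeR adjusted p = 1.16e-06, 4 of 4 libraries) and by 5.92 ± 0.26 in mature hepatocytes (edgeR adjusted p = 3.07e-10, 4 of 4 libraries). Nr1i2, the receptor PXR, averaged 47.1 ± 8.66, 64.5 ± 5.26 and 121 ± 19.1 CPM in hepatoblasts, Diff. and mature hepatocytes, and Nr3c1, the glucocorticoid receptor that dexamethasone binds, 57.4 ± 3.40, 63.2 ± 4.35 and 126 ± 8.02 CPM. Nr1i2 and Nr3c1 were not called in Diff. hepatocytes against hepatoblasts and were higher in mature hepatocytes, though not with library totals. Arnt, the partner of the aryl hydrocarbon receptor Ahr, changed least in mature hepatocytes, at 0.34 ± 0.11. Between Diff. and mature hepatocytes 3 of the 8 were lower (median -0.95), or 1 higher, Ahr, and 2 lower with library totals, and Nr3c1 at -0.99 ± 0.08 was also called without replicate 1 or 4 of the Diff. hepatocytes or replicate 1 or 2 of the mature hepatocytes.

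Of 10 liver-enriched transcription factors, 1, Cebpb, was higher in Diff. hepatocytes than in hepatoblasts (median -0.08), beside 14.9% of all tested genes. In mature hepatocytes 4 were higher (median 0.72, and -0.12 with library totals, which called 3), beside 20.1%, and there Cebpb changed most and Prox1 least. Hnf4a, a factor known to act on many Cyp2 promoters, averaged 409 ± 92.1, 619 ± 75.9 and 1087 ± 182 CPM in hepatoblasts, Diff. and mature hepatocytes. Hnf4a was higher in mature hepatocytes by 1.41 ± 0.18 (edgeR adjusted p = 7.71e-06, 4 of 4 libraries), but not with library totals. Between Diff. and mature hepatocytes 5 of the 10 were lower (median -1.05, and 3 with library totals), from Cebpa at -2.82 ± 0.18 to Foxa3, not called, at -0.31 ± 0.15.

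The 3 PAR bZIP factors are clock output genes that act on Cyp2 promoters. In Diff. hepatocytes 1, Hlf, was lower than in hepatoblasts (median 0.86), in mature hepatocytes 2 were higher (median 2.70), and 3 of 3 were lower in Diff. than in mature hepatocytes (median -2.37). With DESeq2, and with the 8 libraries of the groups compared, Dbp was called higher in Diff. hepatocytes than in hepatoblasts. Dbp was at 0.838, 1.10, 1.10 and 1.09 CPM in hepatoblasts, 2.59, 2.32, 3.20 and 3.30 in Diff. hepatocytes, and 24.9, 122, 24.9 and 159 in mature hepatocytes, and Tef at 92.6, 282, 102 and 316 CPM in the adult libraries. Replicates 2 and 4 of the adult cells were several-fold above replicates 1 and 3 for both, and the hour at which the mice were taken is not given in the sources used here. Cyp2e1 and Cyp2a5 were also higher in adult replicates 2 and 4 than in 1 and 3, and whether these genes move together was not tested.

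Growth hormone signalling controls the sex-dependent Cyp2 genes of adult liver. Of its 7 genes 1 was higher and 3 were lower in Diff. hepatocytes than in hepatoblasts (median -0.11), beside 14.9% and 14% of all tested genes. In mature hepatocytes 3 were higher and 1 lower (median -0.09), or 3 and 3 with library totals, which added Jak2 and Stat5a. Prlr, the prolactin receptor, stayed near the floor with 0.175 ± 0.0597 and 0.165 ± 0.0802 CPM in hepatoblasts and Diff. hepatocytes and reached 98.1 ± 22.6 CPM in mature hepatocytes. Cux2, known as a female-specific repressor, fell by 3.49 log2 units in Diff. hepatocytes (edgeR adjusted p = 1.68e-07, 4 of 4 libraries), and the call for Stat5b there was lost without replicate 4 of the hepatoblasts. Between Diff. and mature hepatocytes 1, Cux2, was higher and 2, Ghr and Prlr, were lower (median -0.93), with Jak2 at 0.49 ± 0.22 changed least and called higher with library totals, and Stat5a and Stat5b were lower too without mature replicate 2.

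Markers of other cell types were read beside the family. Of the 8 erythroid markers 8 were lower in Diff. hepatocytes than in hepatoblasts (median -6.02), and 7 were lower and 1, Alas2, higher in mature hepatocytes (median -8.90), where the call for Alas2 was lost with library totals. The erythroid sum was 29.0, 14.6, 6.93 and 7.20 CPM in the Diff. hepatocyte libraries and between 135 and 185 CPM in the mature ones, where Alas2 was the most abundant, while Hbb-bs led in hepatoblasts. Between Diff. and mature hepatocytes Alas2 was lower (median 1.87), and without hepatoblast replicate 1 the counts were 3 higher and 2 lower. The first 2 erythroid medians were -4.81 and -7.79 without that library, and without replicate 1 of the Diff. hepatocytes the first was -6.73 and the last 1.25. Of 6 macrophage markers 1, Clec4f, was lower in Diff. hepatocytes (median -0.83), higher in mature hepatocytes (median -0.37), and lower in Diff. than in mature hepatocytes (median -0.38, and 0.17 with library totals). Without hepatoblast replicate 1 the first 2 medians were -0.21 and 0.50. Without replicate 1 of the Diff. hepatocytes 2 macrophage markers were lower there than in hepatoblasts (median -1.54), and the median against mature hepatocytes was -1.11. The macrophage sum was 122, 61.3, 19.4 and 29.7 CPM in the Diff. hepatocyte libraries and 139.9, 77.7, 155 and 78.9 CPM in the mature ones, led in the latter by Clec4f. Of 5 endothelial markers 4 were lower in Diff. hepatocytes (median -3.85, and -3.23 without hepatoblast replicate 1) and 2, Kdr and Stab2, higher in mature hepatocytes (median 1.16), or 4 without hepatoblast replicate 1 and 1 higher and 1 lower with library totals. The endothelial sum was between 4.58 and 9.30 CPM in Diff. hepatocytes, led by Pecam1, and between 94.6 and 179 CPM in mature hepatocytes, led by Stab2 in 3 of 4 libraries, and 5 of 5 were lower in the former (median -4.46).

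Of 6 mesenchymal markers 3 were higher in Diff. hepatocytes than in hepatoblasts (median 0.93), or 1 without their replicate 1, 2 without hepatoblast replicate 1, and 1 higher and 1 lower with library totals. In mature hepatocytes 5 were lower (median -4.21) and Lrat was higher, though not with library totals, and in Diff. against mature hepatocytes 5 were higher and 1 lower (median 4.97). The mesenchymal sum was 420.2, 475, 825 and 575 CPM in hepatoblasts, 2205, 919, 1398 and 800.3 in Diff. hepatocytes and at most 24.2 CPM in mature hepatocytes, and Col1a1 was the most abundant in the first 2 groups. Of 5 bile duct markers 3, Krt7, Krt19 and Epcam, were higher in Diff. hepatocytes than in hepatoblasts (median 3.05) and than in mature hepatocytes (median 3.60, with 1 lower without mature replicate 4), and in mature hepatocytes against hepatoblasts 1 was higher and 1 lower (median 0.93), or 0 and 2 with library totals and 1 and 2 without replicate 1 of the Diff. hepatocytes. The bile duct sum was between 12.9 and 15.1 CPM in hepatoblasts, 213, 70.0, 93.5 and 78.6 in Diff. hepatocytes, led by Krt7 in replicate 1 and by Krt19 in the others, and between 15.4 and 40.7 CPM in mature hepatocytes. The part of these other cell types in the levels of the Cyp2 genes was not tested.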

How the data were processed

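Gene counts of 12 libraries, 4 from each of 3 groups, were used. The authors deposited raw counts per gene, made from single 75-base reads that they checked with FastQC 0.11.2, mapped to GRCm38 and counted on Ensembl release 92 genes with STAR 2.5.2b. The library protocol was strand-specific, and the strand setting of this counting is not stated. Of 53715 identifiers listed, 53620 were found in the GENCODE M21 annotation, which supplied symbols, positions and exon lengths. Libraries held between 19581551 and 25216977 counts on genes.

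Counts were fitted with edgeR 4.0.16, run under R 4.3.3 beside limma 3.58.1, with TMM factors, group as the only term, and all 12 libraries in 1 model, over the 17779 genes that passed 10 counts in at least 1 library. Quasi-likelihood tests of the 3 comparisons were adjusted by Benjamini and Hochberg over these genes, with thresholds of 0.01 for the adjusted p and 1 for the absolute log2 fold change. A prior count of 2 entered only the log CPM from which residuals of same-numbered libraries were taken. The fits themselves kept edgeR's default prior. The calling was also run on simulated counts, drawn from a negative binomial model with gene means and dispersions taken from these libraries. Known changes were put only into genes with a mean over 1 CPM, so genes near 0 are not covered. The outcome is not reported here. CPM are TMM-scaled, and levels of different genes were compared per kb of exon length. Ratios of pooled counts carry 95% exact binomial intervals. Shared sequence was measured as the share of 75-base windows of a gene's transcripts found on the sense strand of another gene's transcripts.

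Values in every library are given for the 4 members with the highest mean in each group, the 3 called members with the largest change in each direction of each comparison at a mean of 1 CPM or more, members called in opposite directions, and 12 members of known role or zone. For each list of other genes, the genes with the largest and smallest change are named, with Por, Nr1i2, Nr1i3, Hnf4a, Nr3c1 and Alas1. Other genes named, among them Cyp2a4, Cyp2c40, Cyp2c69, Ghr and further markers, were chosen after their values were seen. Some genes of the lists enter the counts and are not reported here singly. The lists are Cyp2 partners, heme synthesis, heme breakdown, xenobiotic sensors, liver-enriched factors, PAR bZIP factors, the growth hormone axis, beta-catenin pericentral genes, pericentral Cyp2 and female-predominant Cyp2 genes, and markers of 7 cell types. Members and lists were chosen with earlier results of these data known.

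Alternatives were DESeq2 1.42.0, edgeR's glmTreat, DESeq2 size factors, library totals, no filter beyond 1 count, filterByExpr, a looser adjusted p of 0.05 used alone, the 8 libraries of a comparison alone, the replicate number as a block, and leaving out each library in turn. The same alternatives were applied to the lists of partner and regulator genes, and that choice was made after seeing the data. Promoter windows are those of a RefSeq table on GRCm38.p6. Reads were not used here.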

Additional observations from a re-analysis of the deposited data

Results flagged for a closer look

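Of 58 groups of 4 libraries examined, for the named genes and for the family sum, 4 held a library whose gap to its nearest neighbour, as a share of the range of the group, was over the 95% critical value of Dixon's test for 4 values. These shares ran from 0.833 to 0.915, and groups with smaller shares are not listed. Chance alone sets apart about 1 in 20 groups, or 2.9 of 58.

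Cyp2b10 was at 0.355 CPM in replicate 1 of the hepatoblasts, the highest of the group, beside 0.209, 0.227 and 0.232 CPM. Cyp2f2 was at 0.418 CPM in replicate 2 of the hepatoblasts, above 0.322, 0.324 and 0.331 CPM. Both genes are close to the floor of 3 counts in hepatoblasts, and these gaps are small against their differences between groups. Cyp2c23 was at 4.28 CPM in replicate 1 of the Diff. hepatocytes, the lowest of the group, beside 6.50, 6.22 and 6.61 CPM. Cyp2s1 was at 2.06 CPM in replicate 1 of the mature hepatocytes, above 0.193, 0.350 and 0.310 CPM, and this library carried most of the mean of its group. What set these libraries apart was not tested.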

How the results depend on the processing

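Among fold changes of the 19 members chosen by rule, the alternatives gave 6 values of the opposite sign. Fold changes of single genes outside the family were not followed in this way. With library totals, the log2 fold change of Cyp2d22 in Diff. hepatocytes against hepatoblasts was -0.13, the log2 fold change of Cyp2e1 in Diff. hepatocytes against hepatoblasts was -0.13, the log2 fold change of Cyp2c68 in Mature hepatocytes against hepatoblasts was -0.54, and the log2 fold change of Cyp2s1 in Mature hepatocytes against hepatoblasts was -0.39. None of these 4 was called with TMM. TMM factors in mature hepatocytes were below those of hepatoblasts, so library totals lower every value of the first against the second. Over the fits that leave out 1 library each, the log2 fold change of Cyp2s1 in Mature hepatocytes against hepatoblasts lay between -0.84 and 0.78, and the log2 fold change of Cyp2a22 in Mature hepatocytes against hepatoblasts between -0.75 and 0.11.

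Among the counts of members, those of Cyp2 genes lower in Diff. hepatocytes than in hepatoblasts came to 4 with library totals and 4 with the looser adjusted p of 0.05 alone, in place of 1. Cyp2 genes lower in mature hepatocytes than in hepatoblasts were 2 with library totals in place of 1. With glmTreat, which puts the fold change threshold into the test, members higher in Diff. hepatocytes than in hepatoblasts were 13 in place of 19, and those lower in Diff. than in mature hepatocytes 26 in place of 29. Members higher in the cultured than in the mature hepatocytes were 2 with glmTreat and 3 with the 8 libraries of the groups compared, without Cyp2b13 and Cyp2s1, in place of 5. With each library left out in turn, the counts ranged from 16 to 19 higher and 1 to 2 lower in Diff. hepatocytes than in hepatoblasts, from 29 to 30 higher in mature hepatocytes than in hepatoblasts, with 1 lower throughout, and from 4 to 5 higher and 28 to 29 lower in Diff. than in mature hepatocytes. The libraries concerned are named in the report beside each gene.

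For the partner and regulator genes, the alternatives were chosen after seeing the data. Partner and regulator genes higher in Diff. hepatocytes than in hepatoblasts were 17 with the looser adjusted p of 0.05 alone, in place of 10. Partner and regulator genes lower in mature hepatocytes than in hepatoblasts were 7 with library totals and 5 with the looser adjusted p of 0.05 alone, in place of 3. Those higher in the cultured than in the mature hepatocytes were 5 with library totals, 5 with the looser adjusted p of 0.05 alone and 0 with edgeR's glmTreat, in place of 2, and DESeq2 gave 2. For the other 5 counts of these genes glmTreat gave 9 higher and 11 lower in Diff. hepatocytes than in hepatoblasts in place of 10 and 14, 22 higher and 2 lower in mature hepatocytes than in hepatoblasts in place of 27 and 3, and 23 lower in Diff. than in mature hepatocytes in place of 33. The looser adjusted p gave 20 lower in Diff. hepatocytes than in hepatoblasts, 36 higher in mature hepatocytes than in hepatoblasts and 44 lower in Diff. than in mature hepatocytes. With each library left out in turn the count higher in the cultured than in the mature hepatocytes was between 1 and 2, at 1 without replicate 1 of the Diff. hepatocytes, where Hmox1 was lost. Leaving out 1 library gave 2 to 3 of these genes lower in mature hepatocytes than in hepatoblasts and 32 to 36 lower in Diff. than in mature hepatocytes. With library totals 19 of these genes were higher in mature hepatocytes than in hepatoblasts in place of 27, and 25 were lower in Diff. than in mature hepatocytes in place of 33. Apart from library totals, the cause of these shifts was not tested.

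The replicate number was fitted as a block, which pairs the same-numbered libraries of the groups. It gave 30 members higher in mature hepatocytes than in hepatoblasts, with Cyp2a4 added, and left the other 5 member counts at 19, 1, 1, 5 and 29. Residuals of same-numbered hepatoblast and Diff. hepatocyte libraries correlated at 0.324, -0.059, 0.246 and 0.184 for replicates 1 to 4. Pairs with a mature library lay between -0.081 and 0.092. Libraries with different numbers were not compared in this way, so these values cannot decide whether same-numbered libraries share a preparation. The sample labels do not state it, and the main fit leaves the number out.

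Depth limits the low genes. A gene at 3 counts in a library lies between 0.0896 and 0.206 CPM, and ratios against such values rest on few reads. Without a filter beyond 1 count, 32 members were higher in mature hepatocytes than in hepatoblasts, with Cyp2d12, Cyp2d34 and Cyp2j8 added.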
